A study of Mus musculus with 9 samples.

Results

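The chromatin around Il4ra and its neighbour Il21r was examined in Stat5b, Stat5a and IgG immunoprecipitates of mouse CD4+ T cells that had differentiated toward Th2 for 8 h, 13 h or 2 rounds. The locus was taken as a window of 200 kb on chromosome 7 of the mm8 build. The deposited peaks of the 6 ChIP libraries were joined wherever they overlapped by at least 1 bp, which left 43 regions in the window, from 125261209 to 125426904, of 43771 in the genome. The window was chosen by position, with earlier results of these data known. The heap of identical reads inside it was chosen by its read counts, an interval of 151 bp where read starts pile up, and the regions were chosen by the authors' own peaks. Levels of ChIP over IgG in these regions are therefore a description of what chose them.

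The 9 libraries were Stat5b, Stat5a and IgG at 8 h, Stat5b, Stat5a and IgG at 13 h, and Stat5b, Stat5a and IgG after 2 rounds, with 1 library in each group. The labels name no strain, allele, age or cytokine, and describe culture only by reference to a publication. A ChIP library holds no expression marker against which the labelled cell type could be checked. The series asks how IL-2 brings about IL-4 receptor alpha expression during Th2 priming. With 1 library per group, no difference has a replicate check and no p-value is given. The 95% intervals below are exact and cover counting error only.

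Il4ra encodes the alpha chain that the IL-4 and IL-13 receptors share, and in T cells it passes the IL-4 signal to Stat6, which drives the Th2 programme. Il21r encodes the receptor for IL-21, which pairs with the common gamma chain, a subunit that the receptors for IL-2 and IL-4 also use. Stat5a and Stat5b are closely related transcription factors that are phosphorylated when IL-2 binds its receptor, then dimerize and bind DNA. The genes stand next to each other on chromosome 7 of GRCm38.p6, in the order Kdm8, Nsmce1, Il4ra, Il21r and Gtf3c1. Positions of these genes in mm8 were not used here, so no region below is assigned to a promoter, an exon or an intron.

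The promoters are shown because they identify the members, as the 250 bases before each RefSeq start in GRCm38.p6, read on the plus strand. That of Il4ra lies at chr7:125552021-125552270 and that of Il21r at chr7:125603179-125603428.
Il4ra: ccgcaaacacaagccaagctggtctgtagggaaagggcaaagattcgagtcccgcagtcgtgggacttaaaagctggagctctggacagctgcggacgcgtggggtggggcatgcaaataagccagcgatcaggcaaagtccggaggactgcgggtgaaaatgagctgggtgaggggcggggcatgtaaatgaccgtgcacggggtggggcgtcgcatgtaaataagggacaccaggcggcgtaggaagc
Il21r: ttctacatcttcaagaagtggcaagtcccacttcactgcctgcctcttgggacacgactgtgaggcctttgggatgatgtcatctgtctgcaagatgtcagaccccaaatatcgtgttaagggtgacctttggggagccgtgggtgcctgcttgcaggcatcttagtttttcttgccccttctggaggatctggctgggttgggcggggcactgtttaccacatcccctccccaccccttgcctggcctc
No letters are in capitals, because neither window of 300 bases, these 250 and the 50 after the start, holds a match to TTCNNNGAA, the spaced palindrome known as the Stat5 motif, which reads alike on both strands. Of 32851 RefSeq promoters of the same length, 8.30% hold at least 1 match. G and C made up 62% of the Il4ra window and 56% of the Il21r window, against a median of 52.7% over all promoters.

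The most abundant feature of the locus was a heap of reads with the same ends, within 151 bp. At 8 h the heap held 566 reads in Stat5b, 6285 in Stat5a and 262 in IgG. At 13 h it held 1198 reads in Stat5b, 4139 in Stat5a and 424 in IgG. After 2 rounds it held 426 reads in Stat5b, 568 in Stat5a and 87 in IgG. Every library had the heap, the IgG controls included, and Stat5a at 8 h had the most reads.

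Nearly all of these reads had their 5′ end at the same base of the minus strand, 125339968. That end took 443 of the heap's reads in Stat5b, 6179 in Stat5a and 240 in IgG at 8 h. It took 1178 in Stat5b, 4060 in Stat5a and 410 in IgG at 13 h, and 401 in Stat5b, 550 in Stat5a and 87 in IgG after 2 rounds. Its share of the heap was lowest in Stat5b at 8 h, at 78.3%, and reached 100% in IgG after 2 rounds. The heap thus held between 1 and 18 distinct starts per library, although it held up to 6285 reads.

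A weaker end faced it on the plus strand at 125339883, so that the pair of opposite ends span 86 bp. The plus-strand end had 88 reads in Stat5b, 20 in Stat5a and 7 in IgG at 8 h. It had 7 reads in Stat5b, 17 in Stat5a and 7 in IgG at 13 h, and 14 in Stat5b, 4 in Stat5a and none in IgG after 2 rounds. Stat5b at 8 h was the library with most reads there, whereas Stat5a at 8 h was the one with most reads at the opposite end. The heap was therefore one-sided in all 9 libraries, with 79.0% or more of its reads on the minus strand.

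**Figure D1:**
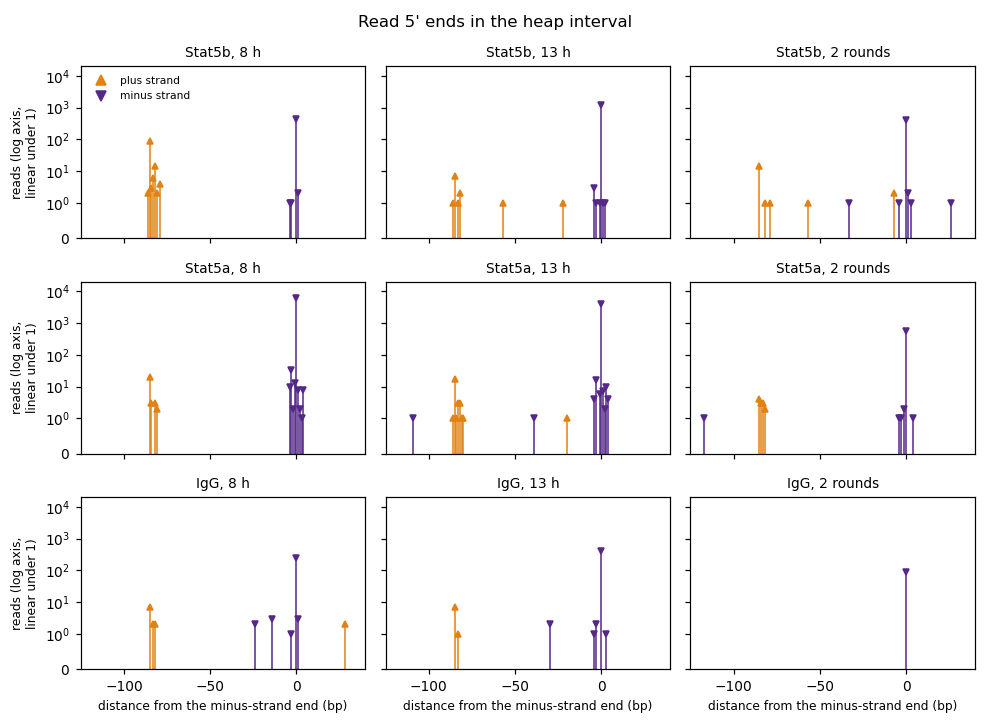
Read 5′ ends in the heap interval, as reads per position (log axis, linear under 1) against the distance in bp from the main minus-strand end, with 1 panel per library and plus-strand and minus-strand ends marked apart. Every library has its tallest minus-strand mark at 0, from 87 reads in IgG after 2 rounds to 6179 in Stat5a at 8 h.

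Among all start positions of the nuclear chromosomes, the minus-strand end of the heap had the most reads of its library in Stat5b at 13 h, Stat5b after 2 rounds, Stat5a at 8 h and Stat5a at 13 h. In Stat5a at 8 h the next start had 491 reads, against 6179 here. The end ranked 4 in Stat5b at 8 h, where the highest other start had 140061 reads against 443 here. It ranked 8 in Stat5a after 2 rounds, with 2076 against 550. In IgG it ranked 8 at 8 h, with 78604 against 240, and 9 at 13 h, with 1882 against 410. After 2 rounds it ranked 103 in IgG, with 62191 against 87. Other starts thus held far more reads than this end in some libraries, and the library totals include them.

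Stacks of this kind were present elsewhere too. Bins of 500 bp with at least 20 reads, over 50% of them at the same start, numbered 119 in Stat5b, 24 in Stat5a and 105 in IgG at 8 h. There were 160 in Stat5b, 288 in Stat5a and 161 in IgG at 13 h, and 52 in Stat5b, 260 in Stat5a and 168 in IgG after 2 rounds. The IgG libraries, with 105 to 168 such bins, lay within the range of the ChIP libraries, 24 to 288. The limit of 20 reads is not scaled by depth, and the library with 24 such bins had the fewest reads, 3130228.

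Scaled to RPM, reads per 1000000 reads of the library, the heap stood at 82.4 in Stat5b, 2008 in Stat5a and 42.0 in IgG at 8 h. At 13 h it stood at 133 RPM in Stat5b, 498 in Stat5a and 56.3 in IgG, and after 2 rounds at 55.6 in Stat5b, 85.5 in Stat5a and 15.0 in IgG. At every stage the order was Stat5a, Stat5b, IgG. Heap reads of Stat5a were 47.8 times those of IgG at 8 h (95% interval 42.3 to 54.3), 8.84 times at 13 h (8.00 to 9.79) and 5.69 times after 2 rounds (4.53 to 7.21). For Stat5b the ratios were 1.96 at 8 h (1.69 to 2.28), 2.35 at 13 h (2.10 to 2.63) and 3.70 after 2 rounds (2.93 to 4.72).

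When reads at the same start and strand were counted once, the heap of Stat5a at 8 h fell to 13 starts, and its ratio to IgG was 3.01 (1.19 to 7.98). The same ratio for Stat5b at 8 h was 1.03 (0.387 to 2.81). At 8 h the excess of Stat5a over IgG in the heap therefore lay mostly in repeats of the same start. At 13 h the ratios by distinct starts were 1.56 in Stat5b (0.566 to 4.68) and 2.54 in Stat5a (1.01 to 7.20). After 2 rounds they were 9.11 in Stat5b and 10.1 in Stat5a, above the ratios of all reads, but IgG had 1 distinct start and the intervals are wide, with lower ends of 1.32 in Stat5b and 1.43 in Stat5a. Separate fragments with the same end and copies of few fragments cannot be told apart in these reads. The intervals for ratios of all heap reads count each read as separate, so they are too narrow if the reads are copies.

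Read length moved with the heap in 3 of the 4 libraries that hold 24 bp beside 25 bp reads. In Stat5a at 13 h the heap had 771 RPM among 25 bp reads and 52.6 among 24 bp reads, a ratio of 14.7 (12.5 to 17.2). The rest of the window had 271 RPM among the 25 bp reads of that library and 208 among its 24 bp reads, a ratio of 1.30 (1.19 to 1.43). The excess of long reads was therefore larger in the heap than around it in this library.

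The same contrast was smaller in IgG at 13 h and in Stat5a after 2 rounds, and was not seen in IgG after 2 rounds. In IgG at 13 h the heap had 87.4 RPM among 25 bp and 24.9 among 24 bp reads, a ratio of 3.51 (2.78 to 4.47), while the rest of the window gave 0.778 (0.684 to 0.884). In Stat5a after 2 rounds the heap ratio was 2.33 (1.95 to 2.78) and that of the rest 1.41 (1.29 to 1.54). In IgG after 2 rounds the heap ratio was 1.22 (0.724 to 2.00), and that of the rest was 1.60 (1.40 to 1.84). What made the reads of different length is not given in the sources used here, and its part in the heap was not tested.

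**Figure D2:**
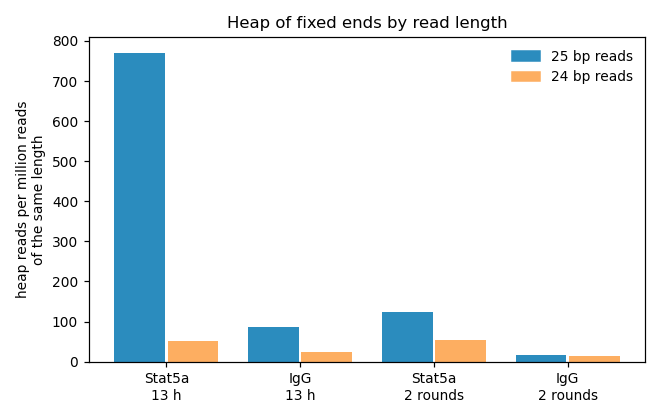
Heap reads per 1000000 reads of the same length, for 25 bp and 24 bp reads, in the 4 libraries that hold both lengths. The bars of Stat5a at 13 h stand at 771 for 25 bp and 52.6 for 24 bp reads, whereas those of IgG after 2 rounds stand at 17.5 and 14.3.

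Reads of 24 bp placed the main end at 125339967 as deposited, and reads of 25 bp at 125339968. At the first position there were 162 such reads of Stat5a at 13 h, 90 of IgG at 13 h, 191 of Stat5a after 2 rounds and 64 of IgG after 2 rounds. The offset of 1 bp was thus seen at the heap in each of the 4 libraries, and 24 bp reads were moved by that base before counting.

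All 6 deposited peak lists contain a peak at the heap. The peaks run from 125339882 to 125339970 in Stat5b and from 125339843 to 125339989 in Stat5a at 8 h, over 89 and 147 bp. They run from 125339867 to 125340044 in Stat5b and from 125339778 to 125340085 in Stat5a at 13 h, over 178 and 308 bp. After 2 rounds they run from 125339806 to 125340091 in Stat5b and from 125339709 to 125339980 in Stat5a, over 286 and 272 bp. Joined, they cover 125339709 to 125340091.

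Outside the heap interval this joined region was nearly empty. It held 0 reads in Stat5b, 2 in Stat5a and 3 in IgG at 8 h, 0 in Stat5b, 3 in Stat5a and 0 in IgG at 13 h, and 0 in Stat5b, 1 in Stat5a and 0 in IgG after 2 rounds. Ranked among all nuclear regions by the mean ChIP level above IgG, it stood at 1, 1 and 30 at 8 h, 13 h and after 2 rounds with the heap reads, and at 37218, 34373 and 37905 without them. A peak call common to all 6 lists thus rested here on reads that share their starts. The values below leave the heap interval out unless they say otherwise.

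Over the whole window the heap decided the order of the antibodies at 13 h. Without it the window held 158 RPM in Stat5b, 241 in Stat5a and 114 in IgG at 8 h. At 13 h it held 298 RPM in Stat5b, 247 in Stat5a and 130 in IgG, and after 2 rounds 550 in Stat5b, 301 in Stat5a and 167 in IgG. With the heap, the window of Stat5a stood at 2249 RPM at 8 h, 745 at 13 h and 387 after 2 rounds, and that of Stat5b at 241, 431 and 605. Stat5a therefore led at 13 h with the heap and Stat5b led without it.

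**Figure D3:**
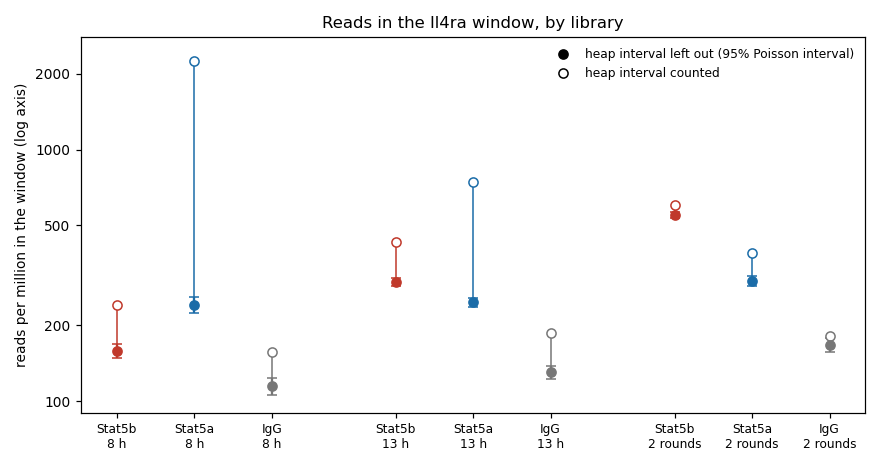
Reads per 1000000 in the window (log axis) in each of the 9 libraries, without the heap interval (filled, with the 95% Poisson interval) and with it (open). The open point of Stat5a at 8 h stands at 2249 and its filled point at 241, while in Stat5b after 2 rounds they stand at 605 and 550.

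The same holds of the change over time. Stat5a at 13 h was at 1.03 times its level at 8 h without the heap (0.943 to 1.12) and at 0.331 times with it. After 2 rounds Stat5a was at 1.25 times its level at 8 h without the heap and at 0.172 times with it. Stat5b kept its direction, at 1.88 times its 8 h level at 13 h without the heap and 1.79 times with it, and at 3.47 times after 2 rounds without the heap and 2.51 times with it.

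The reads that remained were concentrated in the peak regions. The 43 regions cover 29147 bp, or 14.6% of the window. They took 38.7% of the window's reads in Stat5b, 54.9% in Stat5a and 25.4% in IgG at 8 h. They took 52.2% in Stat5b, 45.7% in Stat5a and 24.9% in IgG at 13 h, and 61.9% in Stat5b, 47.0% in Stat5a and 23.3% in IgG after 2 rounds. In IgG too the regions took more than their share of bases.

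In the regions, Stat5b stood at 61.3 RPM at 8 h (55.6 to 67.5), 156 at 13 h (148 to 164) and 340 after 2 rounds (327 to 353). Stat5a stood at 132 RPM at 8 h (120 to 146), 113 at 13 h (106 to 120) and 142 after 2 rounds (133 to 151). IgG stood at 29.0 RPM at 8 h, 32.4 at 13 h and 38.9 after 2 rounds. Stat5b was thus higher at each later stage, with intervals that do not overlap, Stat5a lay between 113 and 142 RPM throughout, and the order of the antibodies at 13 h was the opposite of that at 8 h.

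Levels of Stat5b moved less outside the regions, at 1.47 times the 8 h level at 13 h and 2.16 times after 2 rounds, against 2.54 and 5.55 times inside them. Stat5a outside them was at 1.23 times its 8 h level at 13 h and 1.47 times after 2 rounds, against 0.854 and 1.07 times inside. Outside the regions Stat5b stood at 97.1 RPM at 8 h, 143 at 13 h and 210 after 2 rounds, and Stat5a at 109, 134 and 160. IgG stood at 85.4 RPM at 8 h, 97.8 at 13 h and 128 after 2 rounds. Stat5b over IgG was 1.14, 1.46 and 1.63 at the 3 stages outside the regions, against 2.11, 4.81 and 8.74 inside them. Stat5a over IgG was 1.27, 1.37 and 1.25 outside, against 4.56, 3.48 and 3.64 inside.

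The lists differed in how many peaks they placed in the window, from 9 in Stat5b and 12 in Stat5a at 8 h, through 20 in Stat5b and 18 in Stat5a at 13 h, to 35 in Stat5b and 17 in Stat5a after 2 rounds. Of the 43 regions, 24 came from 1 list only, and 12 of these from Stat5b after 2 rounds. The Stat5b list of 2 rounds reached 31 regions in all. Regions shared by at least 3 lists made up 30.2% of the window's regions, against 17.0% of all regions in the genome, and the heap region is among them.

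**Figure D4:**
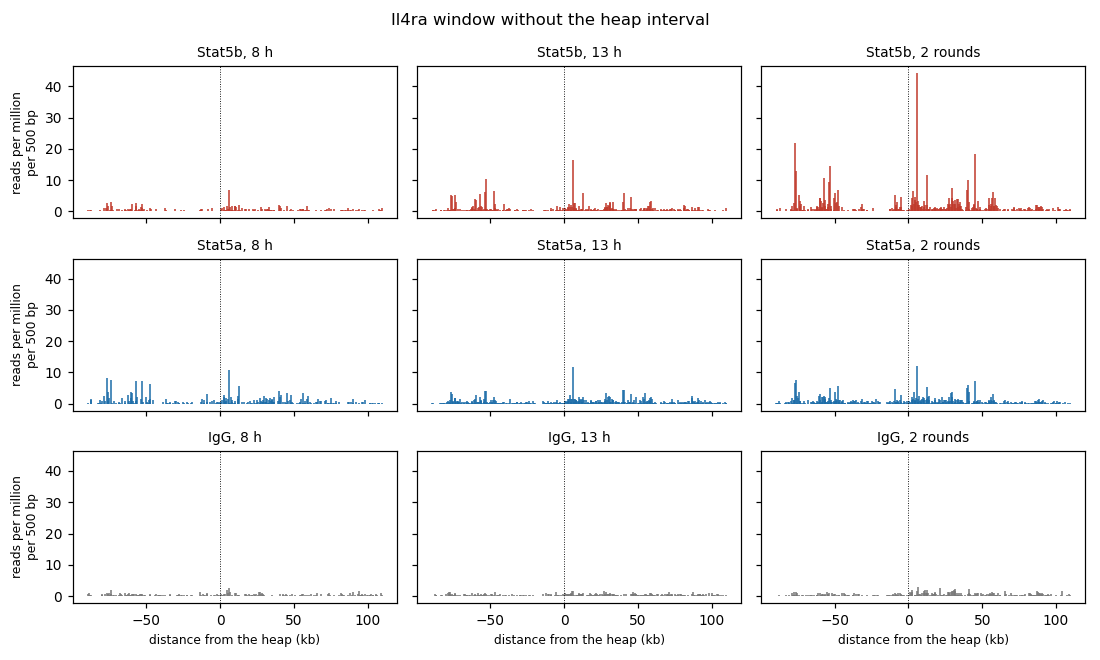
Reads per 1000000 per 500 bp across the window without the heap interval, against the distance in kb from the heap (dotted line), with 1 panel per library. The tallest bar, in Stat5b after 2 rounds, stands at 44.1 on the positive side of the heap, and the highest IgG bar stands at 2.76.

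Without the heap, the region with the highest summed level ran from 125342639 to 125346123. It was centred 4.4 kb from the heap on the side of higher coordinates. At 3485 bp it was the widest of the window, where the median width was 555 bp. It held 12.1 RPM in Stat5b, 17.9 in Stat5a and 7.37 in IgG at 8 h. It held 25.7 RPM in Stat5b, 20.9 in Stat5a and 6.64 in IgG at 13 h, and 69.3 in Stat5b, 23.2 in Stat5a and 4.15 in IgG after 2 rounds. It ranked 380, 86 and 67 among all nuclear regions at the 3 stages, by the mean ChIP level above IgG. These levels are sums over a region and are not scaled by its width, so the ranks favour wide regions. Stat5b there was 16.7 times IgG after 2 rounds (11.1 to 26.3), and 1.64 times at 8 h (1.13 to 2.41).

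Within it, the bin from 125345500 to 125345999 was the highest of the window's 400 bins in all 6 ChIP libraries and also in IgG at 8 h. It held 46 reads in Stat5b, 34 in Stat5a and 17 in IgG at 8 h. It held 148 reads in Stat5b, 97 in Stat5a and 12 in IgG at 13 h, and 338 in Stat5b, 81 in Stat5a and 9 in IgG after 2 rounds. The bin took 63.7% of the region's reads in Stat5b after 2 rounds. Stat5b over IgG in the bin was 2.46 at 8 h (1.38 to 4.58), 10.3 at 13 h (5.71 to 20.3) and 28.4 after 2 rounds (14.8 to 62.6).

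Unlike the heap, this bin held many distinct starts, 163 among the 338 reads of Stat5b after 2 rounds. With each start and strand counted once, Stat5b over IgG after 2 rounds was 45.0 (15.1 to 220), where IgG had 3 distinct starts. Counted in the same way, Stat5b after 2 rounds over 8 h was 5.60 (3.78 to 8.57), against 6.59 in all reads (4.83 to 9.17). Bins with at least 20 distinct starts numbered 28 in Stat5b and 7 in Stat5a after 2 rounds, 12 in Stat5b and 4 in Stat5a at 13 h, and 1 in each at 8 h. No IgG library had any, and all 29 bins that reached this in some ChIP library overlapped a region.

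Of the regions shared by at least 3 lists, 6 lay between 76.4 and 48.1 kb from the heap on the side of lower coordinates. Of these, the region from 125262999 to 125264096 had the highest summed level above IgG at 8 h and after 2 rounds. It was in all 6 lists and held 4.22 RPM in Stat5b, 12.5 in Stat5a and 1.92 in IgG at 8 h. It held 10.1 RPM in Stat5b, 6.86 in Stat5a and 1.06 in IgG at 13 h, and 35.7 in Stat5b, 14.3 in Stat5a and 1.73 in IgG after 2 rounds. Stat5b after 2 rounds was 8.44 times its 8 h level here (5.75 to 12.8). In all reads, the interval of Stat5a at 13 h over 8 h, 0.360 to 0.850, lay below 1, but it counts repeated starts as separate reads. By distinct starts the fall of Stat5a was smaller, from 9.26 RPM at 8 h, with 19 starts, to 6.90 at 13 h, with 36.

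The region from 125285745 to 125287071 held 4.08 RPM in Stat5b, 8.95 in Stat5a and 1.76 in IgG at 8 h. It held 16.7 RPM in Stat5b, 8.90 in Stat5a and 1.73 in IgG at 13 h, and 25.2 in Stat5b, 7.07 in Stat5a and 1.56 in IgG after 2 rounds. Stat5b at 13 h was 4.10 times its 8 h level (2.72 to 6.37), while Stat5a stayed at 0.995 times (0.636 to 1.60). Among the regions shared by at least 3 lists, the lowest ratio of Stat5b to Stat5a at 8 h was in the region from 125291184 to 125292518, with 1.02 RPM in Stat5b and 7.99 in Stat5a at 8 h, a ratio of 0.128 (0.0466 to 0.304), and 7.30 in Stat5b and 3.73 in Stat5a at 13 h, a ratio of 1.96 (1.26 to 3.11).

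On the other side of the heap, 40.1 kb away, the region from 125379697 to 125380423 had little IgG signal beside its ChIP level. It held 23 reads in Stat5b, 20 in Stat5a and 4 in IgG at 8 h, 77 in Stat5b, 71 in Stat5a and 1 in IgG at 13 h, and 128 in Stat5b, 74 in Stat5a and 3 in IgG after 2 rounds. Stat5b stood at 3.35 RPM and Stat5a at 6.39 at 8 h, a ratio of 0.524 (0.275 to 1.01). They stood close at 13 h, at 8.52 RPM in Stat5b and 8.54 in Stat5a, a ratio of 0.997 (0.713 to 1.40). After 2 rounds Stat5b stood above Stat5a, at 16.7 and 11.1 RPM, a ratio of 1.501 (1.12 to 2.03). The median minus-strand start lay 102 to 135 bp beyond the median plus-strand start in the 6 ChIP libraries, counting each start once. The heap's ends span 86 bp with nearly all reads on the minus strand. This offset was not alike in all shared regions. It ran from -73.5 to 30 bp in that from 125279375 and from -10.5 to 876.5 bp in that from 125342639. In that from 125384829 it ran from 80.5 to 219.5 bp, with too few starts in Stat5a at 8 h.

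A pair of regions farther out had their largest change in Stat5b. The region from 125384829 to 125385710 held 2.04 RPM in Stat5b, 3.51 in Stat5a and 1.12 in IgG at 8 h. It held 5.31 RPM in Stat5b, 3.13 in Stat5a and 0.664 in IgG at 13 h, and 19.7 in Stat5b, 8.28 in Stat5a and 1.56 in IgG after 2 rounds. That from 125396706 to 125397389 held 0.582 RPM in Stat5b, 0.958 in Stat5a and 0 in IgG at 8 h. It held 2.55 RPM in Stat5b, 1.68 in Stat5a and 0.399 in IgG at 13 h, and 9.01 in Stat5b, 2.71 in Stat5a and 0.864 in IgG after 2 rounds. Stat5b after 2 rounds was 9.67 times its 8 h level in the nearer region (5.59 to 18.1) and 15.5 times in the farther region (5.78 to 58.4), where the 8 h value rests on 4 reads.

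**Figure D5:**
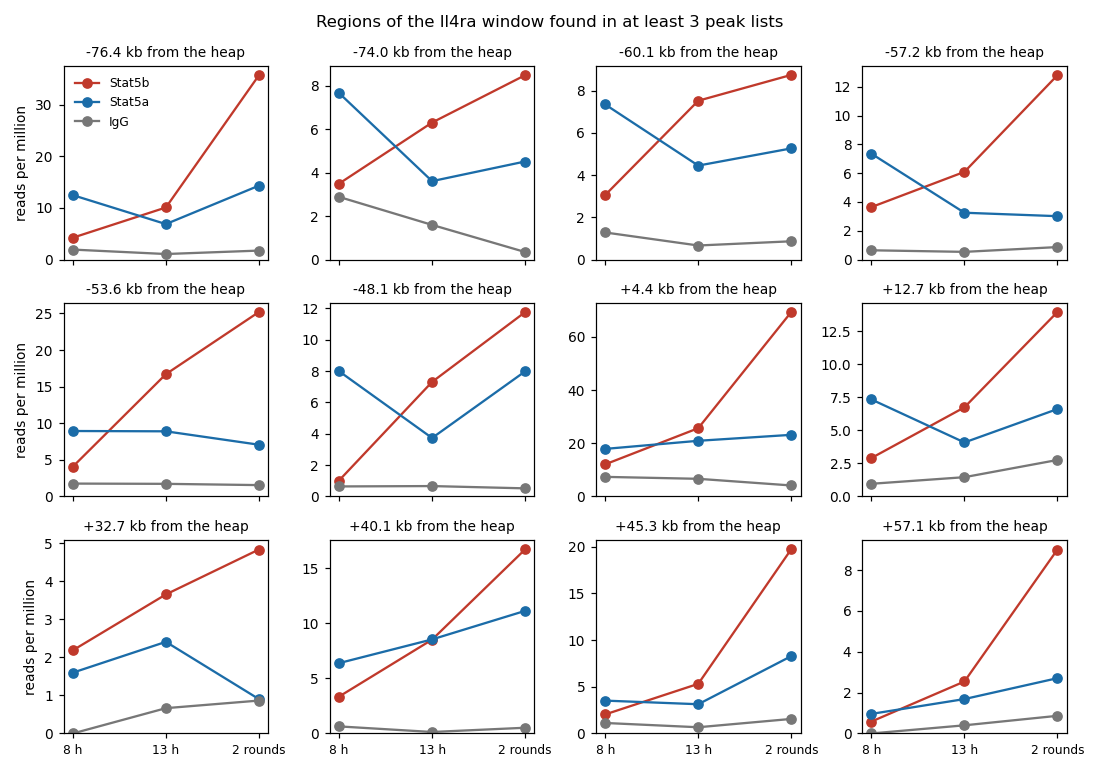
Reads per 1000000 in the 12 regions shared by at least 3 peak lists, the heap region left out, at 8 h, 13 h and after 2 rounds, with 1 panel per region and a scale of its own. Stat5b is highest after 2 rounds in 12 of 12 panels, and Stat5b stands above Stat5a at 8 h in 1 of them. Each of these regions has a peak in the Stat5b list of 2 rounds, so its late height is no test.

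Among the 12 regions shared by at least 3 lists, the heap region left out, Stat5b stood above Stat5a in 1 at 8 h, in 11 at 13 h and in 12 after 2 rounds. Stat5b was higher at each later stage in 12 of 12, and Stat5a in 3. Over all 42 regions without the heap region, Stat5b was higher at each later stage in 32 and Stat5a in 12. Each of the 12 shared regions has a peak in the Stat5b list of 2 rounds, and many of the 42 entered through late Stat5b peaks. These counts therefore describe the regions and do not test them. Over all regions of the genome with reads in both libraries, the median log2 ratio of Stat5b to Stat5a rose too. It was -0.87 at 8 h, 0.31 at 13 h and 1.28 after 2 rounds, against -1.26, 0.60 and 1.31 in the window.

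A region was called when the 95% interval of a ratio lay wholly above 2 or wholly below 0.5. Against IgG, Stat5b was called higher in 1 of 41 regions with at least 1 read in either library at 8 h, where 3.21% of all regions were called. It was called higher in 16 of 42 at 13 h, against 18.7% of all regions, and in 25 of 42 after 2 rounds, against 49.3%. Stat5a was called higher in 14 of 37 at 8 h against 13.1%, in 9 of 43 at 13 h against 14.3%, and in 9 of 43 after 2 rounds against 15% of all regions. The only call of Stat5b at 8 h was the region from 125372298 to 125372999, with 15 reads in Stat5b and 0 in IgG, at least 4.54-fold higher when the floor of 3 reads stands for IgG.

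Counted by distinct starts, the calls against IgG fell to 6 of 37 for Stat5a at 8 h, where 5.98% of all regions were called. They fell to 10 of 42 for Stat5b at 13 h, against 9.67%, and to 21 of 42 for Stat5b after 2 rounds, against 33.9%. For Stat5a they came to 6 of 43 at 13 h, against 3.84%, and to 5 of 43 after 2 rounds, against 7.04%. Stat5b at 8 h kept a count of 1 of 41, against 1.45%. With a limit of 1 in place of 2, in all reads, the counts for Stat5b were 11 of 41 at 8 h, against 13.3% of all regions, 24 of 42 at 13 h, against 41.4%, and 32 of 42 after 2 rounds, against 75.7%. For Stat5a they were 22 of 37 at 8 h, against 27.2%, 22 of 43 at 13 h, against 38.4%, and 18 of 43 after 2 rounds, against 35.4%.

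Between stages, Stat5b was called higher at 13 h than at 8 h in 9 of 42 regions, where 5.58% of all regions were called. After 2 rounds it was called higher than at 13 h in 12 of 42, against 26.3%, and higher than at 8 h in 22 of 42, against 45.5%. Both shares after 2 rounds were thus near those of all regions. Stat5b was called lower at 13 h than at 8 h in 0 of 42, against 0.321%, and lower after 2 rounds than at 8 h in 0 of 42, against 0.225%. Counted by distinct starts, the 9 calls became 2, against 1.2% of all regions, and these were the regions from 125285745 and from 125291184. The 12 calls became 7, against 15.5%, and the 22 became 18, against 32.5%. The 1 call downward after 2 rounds against 13 h, where 0.666% of all regions were called lower, was the region from 125420820 to 125421068, with 1 read in Stat5b after 2 rounds and 20 at 13 h. By distinct starts it was not called, and 0.0694% of all regions were.

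Stat5a gave few calls between stages. It was called higher at 13 h than at 8 h in 0 of 43 regions, against 0.297%, and lower in 2, against 2.23%. After 2 rounds it was called higher than at 13 h in 1 region, against 7.79%, namely the region from 125330459 to 125330960, with 31 reads after 2 rounds and 4 at 13 h, and lower in 0, against 4.03%. By distinct starts 1 region was called higher too, against 2.6%. After 2 rounds against 8 h it was called higher in 0 of 40, against 4.12%, and lower in 1, against 2.1%. By distinct starts Stat5a was called lower in 0 regions at 13 h, against 0.576%, and in 0 after 2 rounds, against 0.452%, each over 8 h. IgG was called higher after 2 rounds than at 8 h in 1 of 41 regions, against 0.621%.

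The antibodies were then compared directly within each stage. Stat5b was called lower than Stat5a in 4 of 40 regions at 8 h, where 4.26% of all regions were called lower, and higher in 0, against 0.0538%. At 13 h it was called higher in 1 of 43, against 2.11%, and lower in 0, against 5.41%. After 2 rounds it was called higher in 7 of 43, against 18.2%, and lower in 0, against 0.516%. The 7 include the region at 4.4 kb, with 2.99 times the Stat5a level (2.50 to 3.60), and those from 125282439 and 125285745, with 4.25 times (2.61 to 7.26) and 3.56 times (2.58 to 5.01). Counted by distinct starts, Stat5b was called lower in 2 regions at 8 h, against 0.984%, and higher in 0 at 13 h, against 0.153%, and in 4 after 2 rounds, against 7.46%.

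Part of these changes was shared by regions across the genome. The median log2 ratio of Stat5b at 13 h over 8 h was 1.35 in the window and 0.93 over all regions with reads in both libraries. After 2 rounds over 8 h it was 2.44 in the window and 2.27 over all regions, and after 2 rounds over 13 h it was 1.05 in the window and 1.37 over all. For Stat5a the medians were -0.41 in the window and -0.20 over all regions at 13 h over 8 h, and -0.28 in the window and 0.14 over all after 2 rounds over 8 h. Measured against the median region in place of the library total, Stat5b in the whole window was at 0.992 times its 8 h level at 13 h. It was at 0.720 times after 2 rounds, and so no longer above its 8 h level. This sets a median of regions against a total that includes reads outside them. At 8 h only 38.7% of the window's Stat5b reads lay in regions. For the reads in the regions alone, a quantity added after seeing the data, the same scaling gave 1.34 times at 13 h (1.20 to 1.495) and 1.15 times after 2 rounds (1.04 to 1.28), still above the 8 h level, against 2.54 and 5.55 times by the library total. By that scaling Stat5b after 2 rounds was at 0.846 times its 13 h level in the regions and at 0.988 times Stat5a, so that neither was higher as it was by the library total.

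Regions with a like pattern were sought among 11518 regions of the genome with at least 100 ChIP reads, by the distance of log2(RPM + 1) over the 9 libraries from the region at 4.4 kb. The nearest were a region on chromosome 5 from 140859495 to 140862644, at a distance of 1.42, and a region on chromosome 3 from 37504718 to 37506423, at 1.43. The next was on chromosome 8 from 84660947 to 84662518, at 1.51. In the first of these Stat5b held 14.4 RPM at 8 h, 29.5 at 13 h and 81.6 after 2 rounds, against 12.1, 25.7 and 69.3 at the Il4ra window's region.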

How the data were processed

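The authors deposited a list of mapped reads for each of 9 ChIP-seq libraries and a list of peaks for each of the 6 ChIP libraries, both as positions in bp of mm8 per the labels' file names, 1 line per read or peak, with no score and no normalization. Which aligner, peak caller and threshold were used is not given in the sources used here. From these, read 5′ ends were counted with Python 3.11.15, numpy 2.4.6, pandas 2.3.3 and scipy 1.17.1, after 24 bp reads were moved by 1 bp. Depth ranged from 3130228 to 9036070 reads per library, so 3 reads, the limit that a count of 0 allows, correspond to 0.958 RPM in Stat5a at 8 h. Levels are RPM of the library total. Ratios carry exact conditional intervals and levels exact Poisson intervals, at 95%, covering counting error only, since reads carry no molecular identifiers. The calling was tested on simulated Poisson counts, with changes placed only in regions with many reads and with no stacked starts. Regions described are those in at least 3 lists, bins those with at least 20 distinct starts in a ChIP library. The window, regions and rules were chosen with earlier results of these data known. Medians use regions with reads above 0 in both libraries. Alternatives were the heap counted or widened, distinct starts, 25 bp reads only, ends moved 75 bp, other scalings, pooled IgG, another call limit and another joining gap.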

Additional observations from a re-analysis of the deposited data

Results flagged for a closer look

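The antibodies moved in opposite directions between stages in several places, each comparing 1 library with 1 library. Whether Stat5b and Stat5a differed in this was not tested. In all regions of the window together, Stat5b at 13 h over 8 h was 2.54 and Stat5a 0.854. In the region from 125262999 the ratio of 13 h over 8 h was 2.38 in Stat5b and 0.550 in Stat5a, and in that from 125265546 it was 1.80 in Stat5b and 0.471 in Stat5a. In the region from 125282439 it was 1.67 in Stat5b and 0.442 in Stat5a, and after 2 rounds over 8 h it was 3.52 in Stat5b and 0.410 in Stat5a. In the region from 125291184 it was 7.17 in Stat5b and 0.467 in Stat5a, and in that from 125352168 it was 2.32 in Stat5b and 0.557 in Stat5a. Measured against the median region in place of the library total, Stat5b at 13 h over 8 h was 0.95 in the region from 125265546 and 0.88 in that from 125282439, so that it lay below 1 as in Stat5a. It was 1.26 in the region from 125262999, 3.77 in that from 125291184 and 1.22 in that from 125352168. By the same measure Stat5b after 2 rounds over 8 h turned to 0.729 in the region from 125282439 and to 0.995 in that from 125352168.

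The heap reads, which the comparisons above leave out, stood above the IgG control at every stage. ChIP over IgG was 1.96 in Stat5b and 47.8 in Stat5a at 8 h, 2.35 in Stat5b and 8.84 in Stat5a at 13 h, and 3.70 in Stat5b and 5.69 in Stat5a after 2 rounds.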

How the results depend on the processing

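Of 280 values recomputed for the main comparisons, 198 stayed alike, and the cause of each of the other 82 values was not tested. A ratio was alike if it lay in its first interval, a count if it stayed close to the first. Some values could hardly change. Widening the heap interval left all 39 alike, and 25 bp reads only could not alter comparisons between libraries without 24 bp reads. With heap reads counted, the window's ChIP over IgG was 1.54 for Stat5b and 14.4 for Stat5a at 8 h, 3.99 for Stat5a at 13 h and 2.12 for Stat5a after 2 rounds. Later over earlier, Stat5a was 0.331 (13 h over 8 h), 0.519 (2 rounds over 13 h) and 0.172 (2 rounds over 8 h), the last pair reversed, and Stat5b was 1.40 (2 rounds over 13 h) and 2.51 (2 rounds over 8 h). Stat5b over Stat5a was 0.107 at 8 h, 0.579 at 13 h (reversed) and 1.56 after 2 rounds. Regions called lower were then 1 for Stat5a and 2 for Stat5b at 2 rounds over 13 h, 2 for Stat5a at 2 rounds over 8 h, and 1 for Stat5b over Stat5a at 13 h.

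With distinct starts, Stat5a over IgG after 2 rounds was 1.66 and Stat5b at 13 h over 8 h was 1.75 in the window. Regions called higher than IgG were 6 for Stat5a at 8 h, 10 for Stat5b at 13 h and 5 for Stat5a after 2 rounds. Stage calls were 2 (higher, Stat5b, 13 h over 8 h), 7 (higher, Stat5b, 2 rounds over 13 h), and 0 among downward calls of Stat5a at 13 h and at 2 rounds over 8 h and of Stat5b at 2 rounds over 13 h. Stat5b over Stat5a gave 2 lower at 8 h, 0 higher at 13 h and 4 higher after 2 rounds.

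With IgG pooled over stages, the window's ratios were 1.16 for Stat5b and 1.77 for Stat5a at 8 h, and 4.04 for Stat5b and 2.21 for Stat5a after 2 rounds, with 3 regions called for Stat5b at 8 h and 16 for Stat5a after 2 rounds. A call limit of 1 gave 11 for Stat5b and 22 for Stat5a at 8 h, 22 for Stat5a at 13 h and 18 for Stat5a after 2 rounds. Scaled by reads outside regions, Stat5b was 3.92 over IgG after 2 rounds, 2.10 over 13 h, 4.04 over 8 h and 2.07 over Stat5a, and 2 regions were called for Stat5b at 8 h. Ends moved by 75 bp gave 2 calls of Stat5b over IgG at 8 h, 1 lower for Stat5a at 13 h over 8 h and 2 lower for Stat5b at 2 rounds over 13 h.

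With 25 bp reads only, ChIP over IgG was 2.62 for Stat5b and 2.38 for Stat5a at 13 h, and 2.33 for Stat5b and 1.52 for Stat5a after 2 rounds, with 13 and 3 regions called after 2 rounds. Stat5a was 1.13 (13 h over 8 h), 1.32 (2 rounds over 13 h) and 1.49 (2 rounds over 8 h), with 0 lower, and with 1 higher and 0 lower at 2 rounds over 8 h. Stat5b over Stat5a was 1.10 at 13 h and 1.53 after 2 rounds, with 3 regions higher and 1 lower.

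Scaled by the median ratio over regions, Stat5b turned to 0.992 (13 h over 8 h), 0.714 (2 rounds over 13 h) and 0.720 (2 rounds over 8 h), and Stat5a to 0.976 (2 rounds over 13 h), the others being 1.18 (13 h over 8 h) and 1.14 (2 rounds over 8 h). Stat5b over Stat5a turned to 1.20 at 8 h, 0.975 at 13 h and 0.750 after 2 rounds. Stat5b calls were then 0 higher at 13 h over 8 h, 0 higher and 3 lower at 2 rounds over 13 h, and 0 higher and 1 lower at 2 rounds over 8 h. Over Stat5a they were 1 higher and 1 lower at 8 h, 0 higher at 13 h, and 0 higher and 2 lower after 2 rounds. The regions from 125282439 and 125352168 turned to 0.729 and 0.995 for Stat5b at 2 rounds over 8 h. For reads in the regions, recomputed after seeing the data, Stat5b turned to 0.846 at 2 rounds over 13 h and, over Stat5a, to 0.988 after 2 rounds. Widening the heap interval moved none of these, and joining peaks across gaps of 500 bp left 32 regions.

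No paired analysis was possible because each group has 1 library, and leaving out a library leaves its group empty. Stat5a at 8 h had the fewest reads, 3130228.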

Other observations

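Between the shared regions at lower coordinates and the heap lay a group of 4 regions that were peaks of the Stat5b list of 2 rounds. Those from 125307868 and from 125330459 were peaks of the Stat5a list of 2 rounds too. The regions from 125292569 and from 125299177 lay there too, outside this group, and were peaks of the Stat5b list of 13 h alone. The region from 125330459 to 125330960 held 1 read in Stat5b, 10 in Stat5a and 6 in IgG at 8 h. It held 9 in Stat5b, 4 in Stat5a and 5 in IgG at 13 h, and 44 in Stat5b, 31 in Stat5a and 6 in IgG after 2 rounds. The region from 125334643 to 125335202 held 7 reads in Stat5b, 0 in Stat5a and 0 in IgG at 8 h, 17 in Stat5b, 14 in Stat5a and 2 in IgG at 13 h, and 40 in Stat5b, 14 in Stat5a and 2 in IgG after 2 rounds. The other regions of the group, from 125307868 and from 125331777, held 28 and 36 reads in Stat5b after 2 rounds and 2 and 3 at 8 h.

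A pair of regions came from the Stat5a list of 8 h alone. That from 125395574 to 125395856 held 3 reads in Stat5b, 11 in Stat5a and 1 in IgG at 8 h, 5 in Stat5b, 2 in Stat5a and 2 in IgG at 13 h, and 13 in Stat5b, 2 in Stat5a and 4 in IgG after 2 rounds. That from 125261209 to 125261457 held 0 reads in Stat5b, 8 in Stat5a and 0 in IgG at 8 h, 8 in Stat5b, 6 in Stat5a and 8 in IgG at 13 h, and 4 in Stat5b, 7 in Stat5a and 4 in IgG after 2 rounds.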
